A study of Mus musculus with 11 samples.

Results

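The 36 genes described here drive or accompany cell division: cyclins and their kinases, the DNA replication machinery, and the proteins that condense, attach and separate chromosomes. They were chosen by name, by matching the Ensembl identifiers of the deposited tables to gene symbols, and all 36 of them were found among the 35584 genes of a table of normalised counts and again among the 33318 genes of a table of normalised TPM (a per-length measure). PolyA RNA of whole mouse hearts was sequenced, in 11 libraries of 4 groups. All mice were male, 8 to 12 weeks old and kept free of specific pathogens, and the labels give no strain for any group. The WT group (n = 3) received diphtheria toxin at 0.01 µg per g of body weight for 3 weeks, as controls. The group called Macrophage-depleted here (n = 3) is labelled CD169-DTR, that is, a toxin receptor under control of the gene for the macrophage surface protein CD169, and received the same toxin, with depletion lasting 21 days. Hearts of the Mertk-KO group (n = 2) lacked, by their label, Mertk, a receptor by which macrophages take up dying cells. The group called LXR-DKO here (n = 3) is labelled LxRalpha_beta DKO, lacking both liver X receptors, which are sterol-sensing transcription factors. The labels do not say whether the Mertk-KO and LXR-DKO mice received toxin, so that genotype and toxin cannot be told apart in their comparisons with WT, and the CD169-DTR allele cannot be told apart from depletion. No label states that each library came from its own mouse, so the spread behind each p-value is that of the libraries alone and could be technical in part.

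A cell that commits to divide first makes D-type cyclins, which activate Cdk4 and release the E2F transcription factors that switch on the replication genes. The MCM helicase unwinds DNA, Pcna holds the polymerases on it, and thymidylate synthase and ribonucleotide reductase supply the nucleotides. Cyclin A, cyclin B and Cdk1 then carry the cell into mitosis, where Polo and Aurora kinases, kinetochore proteins and motor proteins separate the chromosomes. Adult heart muscle cells have largely left the cycle, so most dividing cells of an adult heart are thought to be endothelial cells, fibroblasts and leukocytes. In RNA from a whole heart, fewer cells of a type and less RNA per cell cannot be told apart.

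Libraries held 10938600 to 20722295 estimated reads, of which the 36 genes took 4598 to 10049, or 0.0383% to 0.0490%. Values are given as normalised counts, in which 1 read was worth 0.707 to 1.41 depending on the library, so that a count of 0 allows up to 3 reads, or 2.12 to 4.22 normalised counts (counting error only). Heart muscle markers were abundant in every library, with 450466 to 573976 summed normalised counts over 4 genes. The 6 macrophage markers summed to 2673 to 3163 in WT, 1048 to 2025 in Macrophage-depleted, 3409 to 4794 in Mertk-KO and 2190 to 2840 in LXR-DKO. The summed endothelial markers were at 8145 to 8786 after depletion, below the 9407 to 10234 of WT, and the adipocyte markers at 6.48 to 17.2, below 40.9 to 89.1. Singly, Cd68 of the macrophage and Pecam1 of the endothelial markers overlapped WT after depletion, and the others of these lists lay below it. The summed mesothelial markers lay above WT after depletion (164 to 214 against 48.2 to 159). Of these Upk3b did so singly, while Msln and Wt1 overlapped WT. In LXR-DKO the smooth muscle marker Acta2 was above WT (2339 to 2668 against 887 to 1560) and Rgs5 below it (7517 to 7835 against 8405 to 8695). Atrial markers were at 72.2 to 527 in Mertk-KO and at 1368 to 8747 in WT, and ran from 108 to 6565 in LXR-DKO. The summed fibroblast markers overlapped WT in every group, as did Col1a1, Dcn and Tcf21 singly. Pdgfra was at 637 to 671 in WT, but at 570 and 581 in Mertk-KO and 561, 484 and 584 in LXR-DKO. Siglec1, which encodes CD169, was at 33.8 in the library Macrophage-depleted 1 but at 2.12 and 0.719 in the other libraries of that group, against 53.4 to 64.3 in WT. The 3 T cell markers summed to 3.14 to 10.2 in WT, 8.63 to 15.6 after depletion, 11.9 to 14.0 in Mertk-KO and 3.62 to 5.56 in LXR-DKO. WT libraries had 129.9 to 147 of Mertk and the Mertk-KO pair 75.7 and 89.4. The other groups were also below WT, at 125, 93.3 and 75.4 after depletion and 93.6, 103 and 100 in LXR-DKO. Values per gene do not show which exons these reads cover. The liver X receptor genes Nr1h3 and Nr1h2 were at 25.9 to 29.0 and 85.2 to 99.6 in LXR-DKO, against 155 to 173 and 525 to 543 in WT. The part of these cell-type differences in the results below was not tested.

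The D-type cyclins, their kinase Cdk4, Cenpa and Pcna had the 6 highest levels per gene length in WT hearts, and the mitotic genes Kif11 (0.186 TPM) and Bub1 (0.190 TPM) the lowest. In WT hearts Cdk4, the kinase partner of the D-type cyclins, had the highest level at 51.8 ± 6.21 TPM (SD, n = 3). Ccnd3 (cyclin D3) followed at 38.0 ± 6.33 and Cenpa, the histone H3 variant that marks centromeres, at 36.8 ± 2.87, which do not differ beyond their spread. Pcna was at 26.4 ± 0.604, Ccnd1 (cyclin D1) at 22.2 ± 3.89 and Ccnd2 (cyclin D2) at 21.0 ± 0.885, the last pair again within their spread. Rrm1, the large subunit of ribonucleotide reductase, was at 8.00 ± 1.06 TPM and Rrm2, its small subunit made mainly in S phase, at 1.60 ± 0.125. The 6 subunits of the MCM helicase lay between 1.51 ± 0.552 (Mcm5) and 6.77 ± 1.14 (Mcm7). Mki67, which encodes the proliferation marker Ki-67, was at 0.738 ± 0.215 TPM, Ccnb1 (cyclin B1) at 0.794 ± 0.584 and Plk1 (Polo-like kinase) at 0.286 ± 0.0432. Cenpf, a kinetochore protein of G2 and mitosis, was at 5.43 ± 3.04 TPM, the highest of the mitotic genes after Cenpa.

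**Figure D1:**
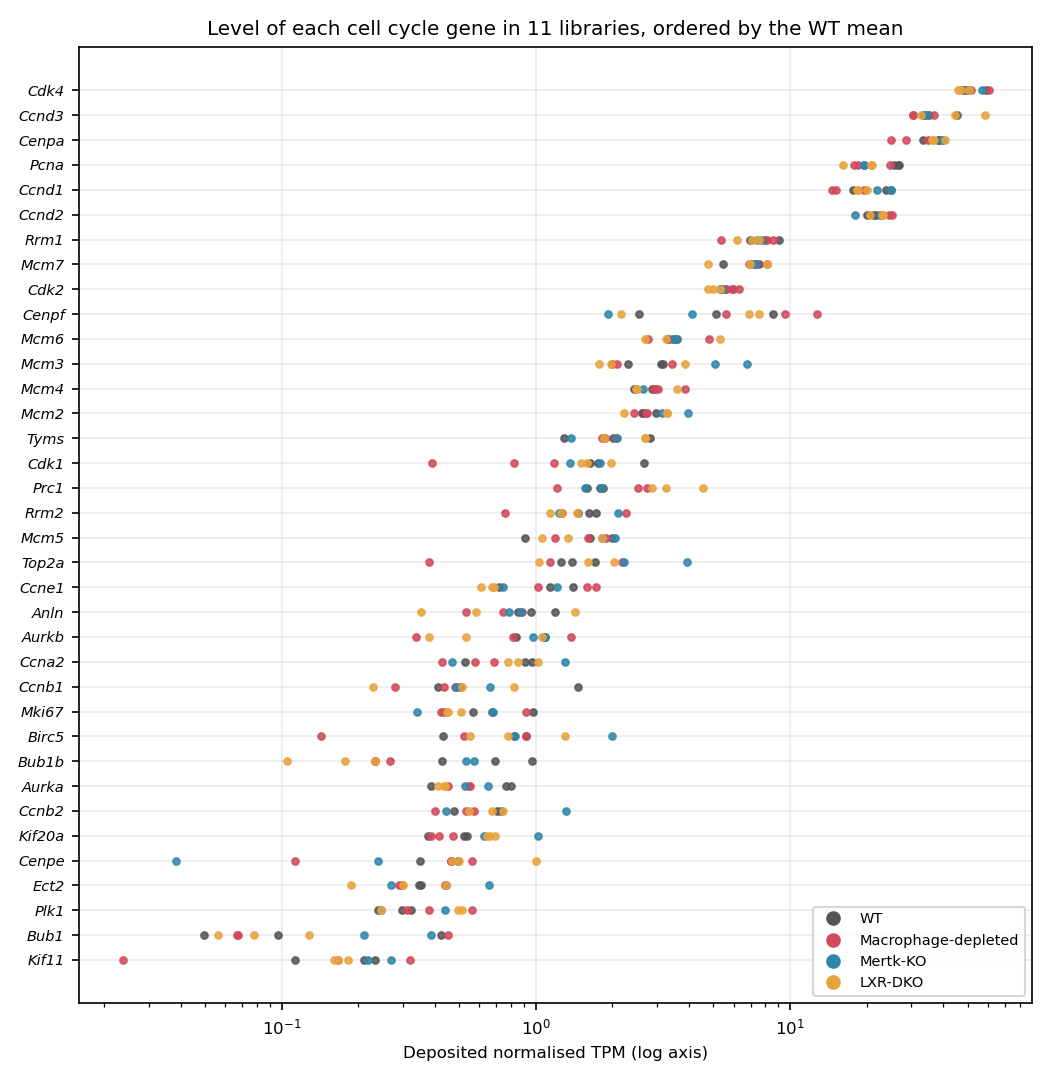
Each point is 1 library, placed on a log axis by its deposited normalised TPM, and genes are ordered by the WT mean. Cdk4 is at the top with a WT mean of 51.8 TPM and Kif11 at the bottom with 0.186, and the colours of the 4 groups are mixed along most lines.

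After macrophage depletion 0 of the 33 members abundant enough to be tested (10 normalised counts or more on average) passed the test against WT, where 0.238% of all 13884 genes tested did (limma, adjusted p below 0.05). Voom also called 0 of them, and 6 had an unadjusted p below 0.05: Bub1b, Ccnd1, Cenpa and Pcna lower, Ccnd2 and Cenpf higher. That is 18.2% of the members, where 7.53% of all genes had such a p. The median log2 fold change was -0.12 over the 33 and 0.00 over all genes, with 11 members above 0 and 22 below. By class, the median was -0.60 for the 3 tested cyclins and kinase of S, G2 and mitotic entry, -0.53 for 4 mitotic kinases and checkpoint genes, -0.38 for 6 centromere, spindle and chromosome genes and -0.23 for 4 cytokinesis genes. For the 6 G1 genes it was -0.01 and for the 10 replication genes 0.07. The summed endothelial and macrophage markers lay below WT in the same libraries, and their part in these medians was not tested. The libraries did not overlap between the groups for 7 of the 33 members (21.2%), where they did not for 16.7% of all genes. Without Macrophage-depleted 1, the library of that group with the most Siglec1, limma again called 0 of the 33.

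In Mertk-KO against WT 1 of the 33 members passed, where 9.27% of all genes did (limma, adjusted p below 0.05): Cenpf fell. Cdk4, Kif20a and Pcna had an unadjusted p below 0.05 besides, so that 12.1% of the members had one and 28.6% of all genes. The median was -0.02 over the members and -0.01 over all genes, with 15 members above 0 and 18 below. By class it was 0.18 for the S, G2 and mitotic entry genes, -0.29 for the centromere, spindle and chromosome genes, -0.16 for the cytokinesis genes and between -0.01 and 0.05 for the 3 other classes. Groups did not overlap for 11 of the 33 (33.3%), where they did not for 42.6% of all genes.

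In LXR-DKO against WT 0 of 33 members passed by limma or by voom, where 0.418% of all genes did by limma. Anln, Bub1b and Pcna, all lower, had an unadjusted p below 0.05, which is 9.09% of the members where it was 11.5% of all genes. The median was -0.11 over the members and 0.00 over all genes, with 13 above 0 and 20 below. It was -0.40 for the mitotic kinases and checkpoint genes, -0.29 for cytokinesis, -0.14 for the centromere class and between -0.07 and -0.01 for the 3 others. Groups did not overlap for 10 of the 33 (30.3%), where they did not for 22.7% of all genes. All 3 comparisons share the WT libraries.

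**Figure D2:**
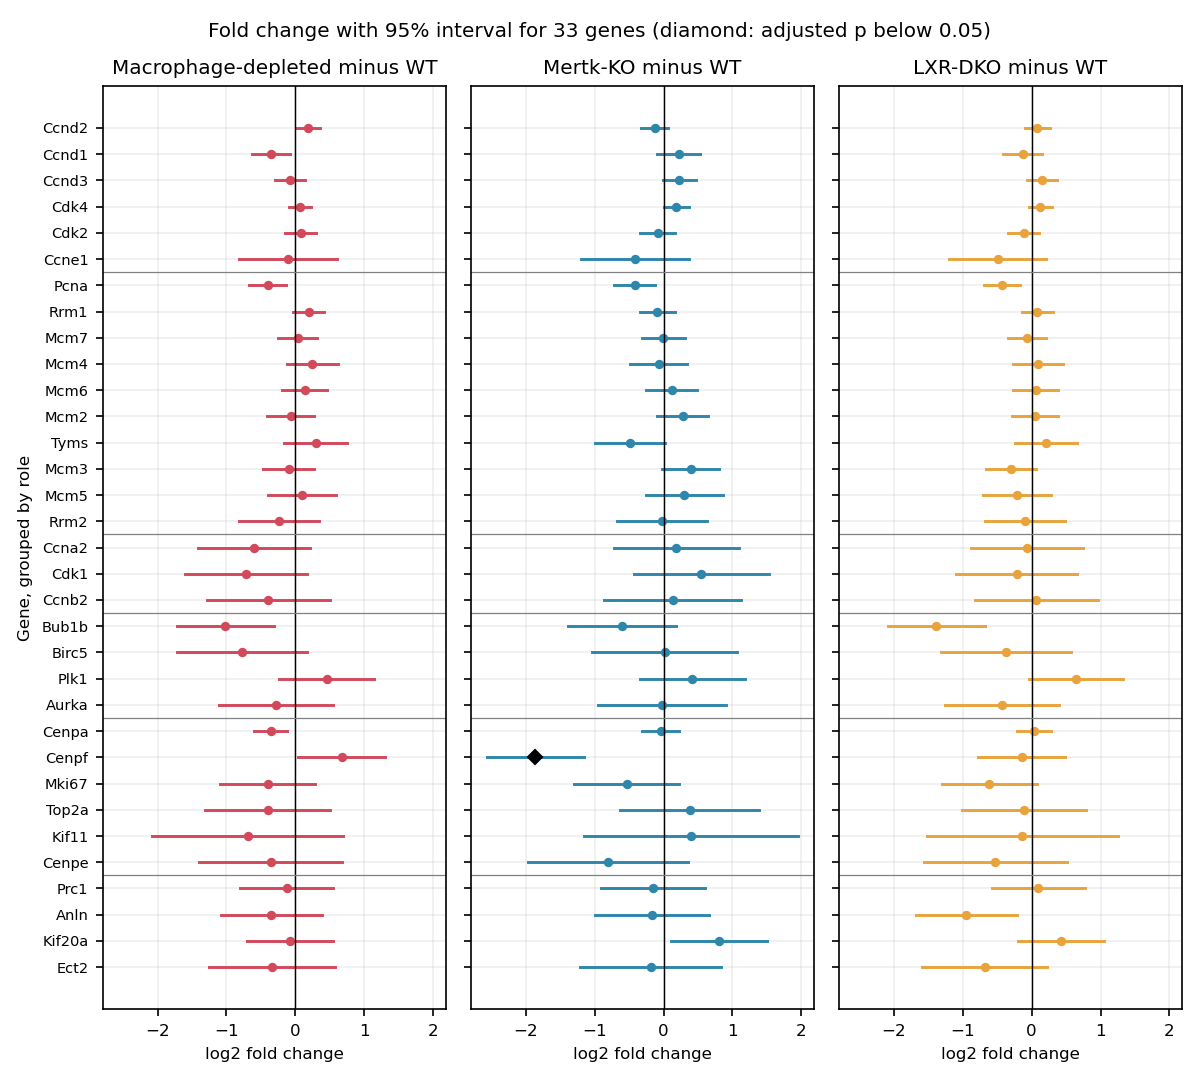
Points are log2 fold changes against WT and bars their 95% intervals, for the 33 genes tested, grouped by role from the G1 genes at the top to the cytokinesis genes at the bottom. The black diamond, Cenpf in Mertk-KO at -1.86, is the gene past the threshold, and the intervals widen for the less abundant mitotic genes, to -2.08 to 0.70 for Kif11 after depletion.

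Set against each other, Macrophage-depleted and Mertk-KO hearts differed in 4 of the 33 members, where 21.0% of all genes did (limma, adjusted p below 0.05). Cenpf, Ccnd2 and Tyms were higher after depletion and Ccnd1 was lower. Cenpf alone passed with the fit limited to these 2 groups, with a weight per library or without Macrophage-depleted 3. Without Macrophage-depleted 1 there were again 4, with Cenpa in place of Ccnd1. Macrophage-depleted and LXR-DKO differed in 0 of 33 members by limma and 0 by voom, where 3.24% of all genes differed by limma, and 3 members had an unadjusted p below 0.05 (Ccnd3 and Cenpa lower after depletion, Cenpf higher), as did 20.5% of all genes. Mertk-KO and LXR-DKO differed in 1 of 33 members, Cenpf, lower in Mertk-KO, where 2.46% of all genes differed; voom called 0.

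The libraries of 1 group differed among themselves for most classes. Mertk-KO 2 was the highest of the 11 libraries for 10 of the 36 genes and Macrophage-depleted 2 for 7, while Macrophage-depleted 1 was the lowest for 9. Macrophage-depleted 1 also had the fewest estimated reads (10938600). The same count was not made over all genes, so it does not show whether the members differ from other genes in this. The median difference of the 33 members from the WT mean was -0.20, 0.15 and -0.19 (log2) in Macrophage-depleted 1, 2 and 3, -0.07 and 0.10 in Mertk-KO 1 and 2, and -0.02, -0.11 and -0.10 in LXR-DKO 1, 2 and 3. The WT libraries themselves spanned -0.08 to 0.06, so the Macrophage-depleted libraries lay on either side of WT. For the 6 centromere, spindle and chromosome genes the medians were -0.85, 0.50 and -0.33 in Macrophage-depleted 1, 2 and 3. In 2 classes the medians of these libraries all lay below those of every WT library. How often other sets of so few genes do so was not counted. The 3 cyclins and kinase of S, G2 and mitotic entry were at -0.73, -0.25 and -0.54, where the lowest WT library was at -0.05. Singly, Ccna2, Ccnb2 and Cdk1 each overlapped WT in the counts. The 4 mitotic kinases and checkpoint genes were at -0.74, -0.24 and -0.55, with the lowest WT library at -0.11. Of these, Bub1b and Birc5 lay below WT singly, Aurka overlapped it and Plk1 lay above it. The 3 LXR-DKO libraries, at -0.78, -0.15 and -0.26, also lay below WT for the latter class, and the Mertk-KO pair, at -0.53 and 0.80, lay on either side of WT for the former.

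**Figure D3:**
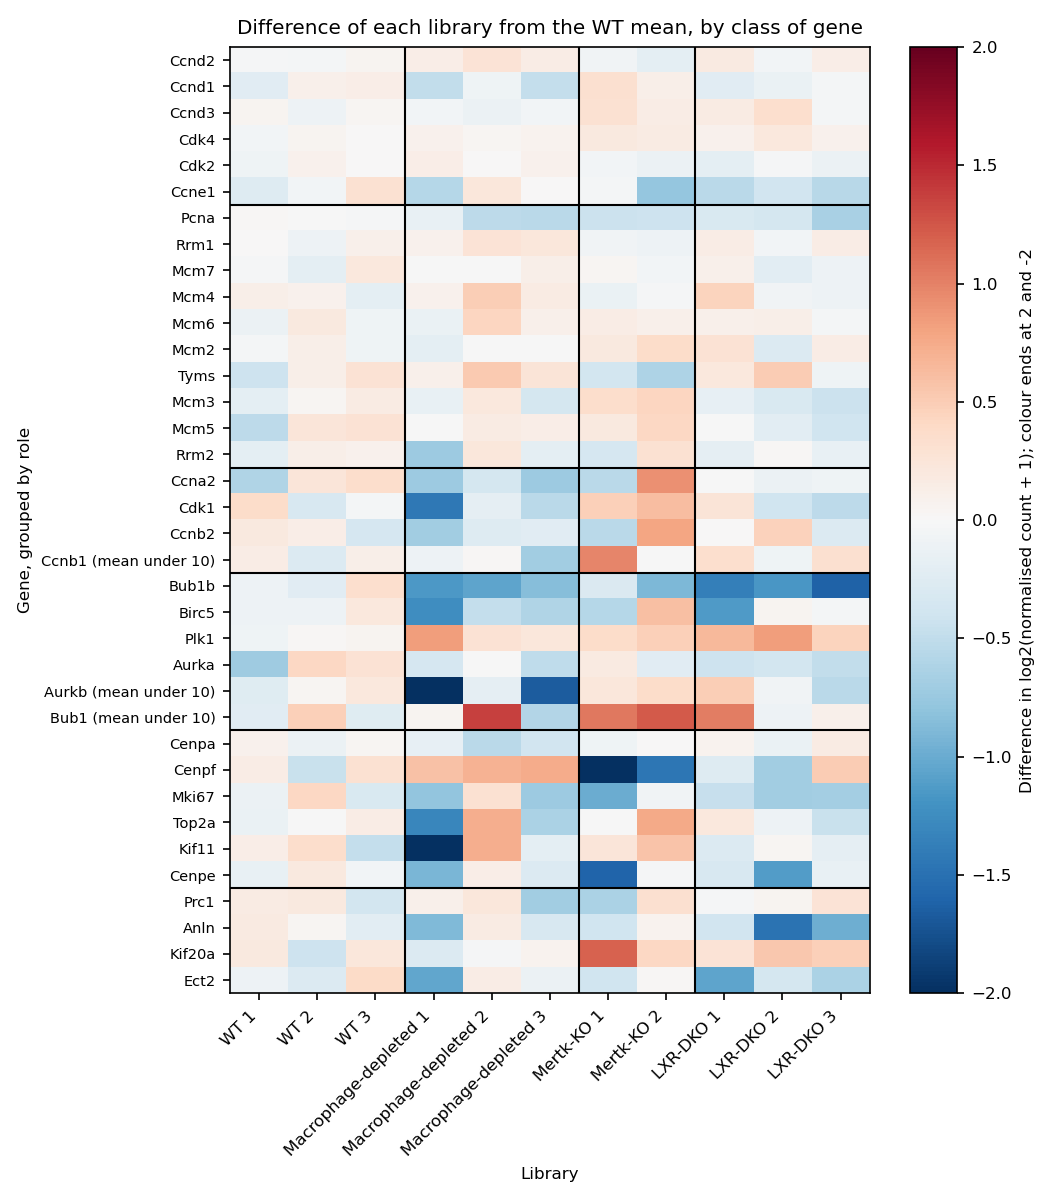
Colour gives each library's difference from the WT mean in log2(normalised count + 1), red above and blue below, with genes grouped by role and the colour ending at 2 and -2. Cenpf is red in all 3 Macrophage-depleted and blue in both Mertk-KO libraries, and Bub1b and Pcna are blue outside WT. Top2a, Kif11 and Mki67 are blue in Macrophage-depleted 1 and red in Macrophage-depleted 2, while Cenpa, Ccna2, Ccnb2, Cdk1 and Birc5 are blue in both.

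The 6 genes of G1 and the G1/S step held 2 of the 4 members that differed between Macrophage-depleted and Mertk-KO hearts. Where a Mertk-KO library is left out below, the lone library of that group is assumed to vary like the other groups. Ccnd1, the cyclin that growth signals induce first, on mouse chromosome 7 (GRCm38, 144929931 to 144939925, minus strand), had 789, 993 and 1011 normalised counts in WT, against 657, 872 and 668 in Macrophage-depleted libraries. It had 1156 and 1005 in Mertk-KO and 788, 848 and 903 in LXR-DKO. The Macrophage-depleted libraries all lay below the Mertk-KO pair, while each group overlapped WT. The difference between Macrophage-depleted and Mertk-KO was -0.57 (log2, SE 0.14, limma adjusted p 0.0187). The call was lost without Macrophage-depleted 1 (adjusted p 0.0507), Macrophage-depleted 3 (0.0580) or Mertk-KO 1 (0.0717), in a range of 0.0140 to 0.131 over 22 alternatives. Against WT the change was -0.35 after depletion (95% interval -0.63 to -0.07, adjusted p 0.490), 0.22 in Mertk-KO (adjusted p 0.338) and -0.13 in LXR-DKO (adjusted p 0.723).

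Ccnd2 went the other way. It had 1572, 1545 and 1658 normalised counts in WT, 1753, 1919 and 1762 after depletion, 1519 and 1394 in Mertk-KO and 1800, 1531 and 1745 in LXR-DKO. All Macrophage-depleted libraries lay above WT and both Mertk-KO libraries below it. Macrophage-depleted exceeded Mertk-KO by 0.31 (log2, SE 0.09, limma adjusted p 0.0301). The call was lost without Macrophage-depleted 2 (0.0902), Macrophage-depleted 3 (0.0575) or Mertk-KO 2 (0.101), and with each library's trend over transcript length removed the difference was 0.07 (adjusted p 0.569), in a range of 0.0229 to 0.569. Against WT the change was 0.19 after depletion (adjusted p 0.619), -0.13 in Mertk-KO (adjusted p 0.372) and 0.09 in LXR-DKO (adjusted p 0.712).

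Ccnd3 and Cdk4 varied within a narrow band. Ccnd3 had 579 ± 35.4 normalised counts in WT and 678 ± 52.8 (n = 2) in Mertk-KO, where both libraries lay above all WT libraries (log2 fold change 0.23, limma adjusted p 0.2001). Cdk4 had 532 ± 20.7 in WT, 557 ± 10.3 after depletion, 603 ± 10.03 in Mertk-KO and 582 ± 31.5 in LXR-DKO, with 0.18 in Mertk-KO against WT (adjusted p 0.174). Cdk2, the kinase that works with cyclins E and A, had 134 to 169 in all 11 libraries, and its largest fitted difference from WT was -0.11 in LXR-DKO (95% interval -0.34 to 0.11). Ccne1 (cyclin E1), the least abundant of the class, had 10.8 to 24.1 and intervals wide enough to hold a change of -1.20 or 0.60. Exons of Ccnd1, Ccnd2, Ccnd3 and Cdk4 overlap opposite-strand genes by 300 bases or more (Ccnd1 and LTO1 by 1100). With Ccna2, Mcm7, Kif20a and Prc1 of the other classes, 8 members have such an overlap. The strand setting of the counting was not given in the sources used here.

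Among the 10 replication genes, the helicase subunits Mcm2 to Mcm7, which form the ring that opens the double helix, showed no call by limma on the normalised counts in any of the 6 comparisons. Mcm3 had 73.4, 86.0 and 94.3 normalised counts in WT, 76.0, 97.6 and 65.5 after depletion, 108 and 114 in Mertk-KO and 75.0, 67.6 and 62.5 in LXR-DKO. The Mertk-KO pair lay above every other library. Mcm3 was 0.39 higher in Mertk-KO than in WT (log2, SE 0.19, limma adjusted p 0.192) and 0.69 higher than in LXR-DKO (SE 0.19, adjusted p 0.0694). Against Macrophage-depleted it was 0.49 higher in the counts (adjusted p 0.0830) and 1.24 higher in the TPM table, where it passed (adjusted p 0.0384). The 5 other subunits had fitted changes against WT between -0.21 (Mcm5 in LXR-DKO) and 0.30 (Mcm5 in Mertk-KO). Mcm7 had 133 to 179 in all libraries, with changes of 0.03, 0.00 and -0.07 against WT in Macrophage-depleted, Mertk-KO and LXR-DKO.

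Of the nucleotide suppliers, Tyms (thymidylate synthase, which makes the thymine nucleotide) differed between perturbed groups. It had 70.0, 101 and 114 normalised counts in WT, 100.3, 134 and 111 after depletion, 72.02 and 60.6 in Mertk-KO and 108, 134 and 87.5 in LXR-DKO. The Macrophage-depleted libraries all lay above the Mertk-KO pair, and WT overlapped both. The difference was 0.78 (log2, SE 0.23, limma adjusted p 0.0344). The call was lost without Macrophage-depleted 2 (0.111), Macrophage-depleted 3 (0.0714), Mertk-KO 2 (0.116) or LXR-DKO 1 (0.0508), and in the TPM table the difference was 0.17 (adjusted p 0.756), in a range of 0.0268 to 0.756. Rrm1 had 209.8 ± 14.4 in WT, 240.0 ± 15.6 after depletion, 197 ± 2.93 in Mertk-KO and 223 ± 18.4 in LXR-DKO, with a change of 0.19 after depletion (adjusted p 0.760). Rrm2 had 21.1 to 44.2, and all groups overlapped.

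Pcna, the sliding clamp of replication (GRCm38 chromosome 2, 132249162 to 132253314, minus strand), was lower outside WT in the deposited table. It had 449.9, 437 and 435 normalised counts in WT, 397, 306 and 304 after depletion, 327 and 332 in Mertk-KO and 358, 347 and 282 in LXR-DKO. The 3 WT libraries lay above all 8 others. The log2 fold change against WT was -0.40 (SE 0.12) after depletion, -0.42 (SE 0.14) in Mertk-KO and -0.43 (SE 0.12) in LXR-DKO, with limma adjusted p of 0.347, 0.0690 and 0.241. Without Macrophage-depleted 1 the Mertk-KO value passed (adjusted p 0.0481).

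A near-identical copy bears on this. Pcna-ps2 is a processed pseudogene of 781 bases on chromosome 19 (9283380 to 9284160, plus strand, in the GENCODE M21 annotation of GRCm38), which is 99.2% identical to the coding sequence of Pcna. It differs from it at 6 positions, counted from the A of the Pcna start codon: A144G, A177C, G424A, A586G, G618T and G699A, each with the base of Pcna first. A read within coding positions 2 to 782 that spans none of the 6 could come from either gene. To show how little tells the copies apart, 60-base windows of both, cut from the reference genome, are printed with the differing bases in capitals, first coding positions 122 to 181 and then 602 to 661.
Pcna 122 to 181: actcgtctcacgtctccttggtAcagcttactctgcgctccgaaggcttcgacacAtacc
Pcna-ps2 122 to 181: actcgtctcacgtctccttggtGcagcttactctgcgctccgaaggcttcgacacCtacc
Pcna 602 to 661: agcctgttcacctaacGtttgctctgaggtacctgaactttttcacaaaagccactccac
Pcna-ps2 602 to 661: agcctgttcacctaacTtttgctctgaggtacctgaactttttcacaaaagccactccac

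The deposited table gave Pcna-ps2 3.10, 0 and 5.77 normalised counts in the WT libraries, that is 2.92, 0 and 5.51 estimated reads. It gave 54.4, 141 and 160.5 after depletion, 141 and 165 in Mertk-KO and 52.4, 118 and 113 in LXR-DKO. The pseudogene was near the floor in WT and at 38.7 estimated reads or more in the 8 others. It was called higher than WT in Macrophage-depleted, Mertk-KO and LXR-DKO (limma adjusted p 0.00834, 0.00350 and 0.00264). Its share of the summed reads of both genes was 0% to 1.31% in WT, 12.0%, 31.5% and 34.5% after depletion, 30.1% and 33.2% in Mertk-KO, and 12.8%, 25.3% and 28.6% in LXR-DKO. Macrophage-depleted 1 and LXR-DKO 1 had the smallest share and the most Pcna of their groups.

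With the reads of both genes added together, the sum did not pass in any comparison with WT. The sums were 453, 437 and 441 normalised counts in WT, 452, 447 and 465 after depletion, 467 and 497 in Mertk-KO and 410.4, 465 and 394 in LXR-DKO. The WT libraries now lay among the others, with Mertk-KO above them. The log2 fold change of the sum was 0.03 (SE 0.08) after depletion, 0.12 (SE 0.09) in Mertk-KO and -0.07 (SE 0.08) in LXR-DKO, with limma adjusted p of 0.994, 0.4302 and 0.771. This sum was chosen after seeing the data. The TPM table gave the pseudogene 0% to 1.71% of the summed TPM in WT and 14.1% to 38.9% in the other libraries. Which reads came from which copy cannot be told apart from values per gene. The labels name no strain, so genetic background and group cannot be told apart in these differences from WT.

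**Figure D4:**
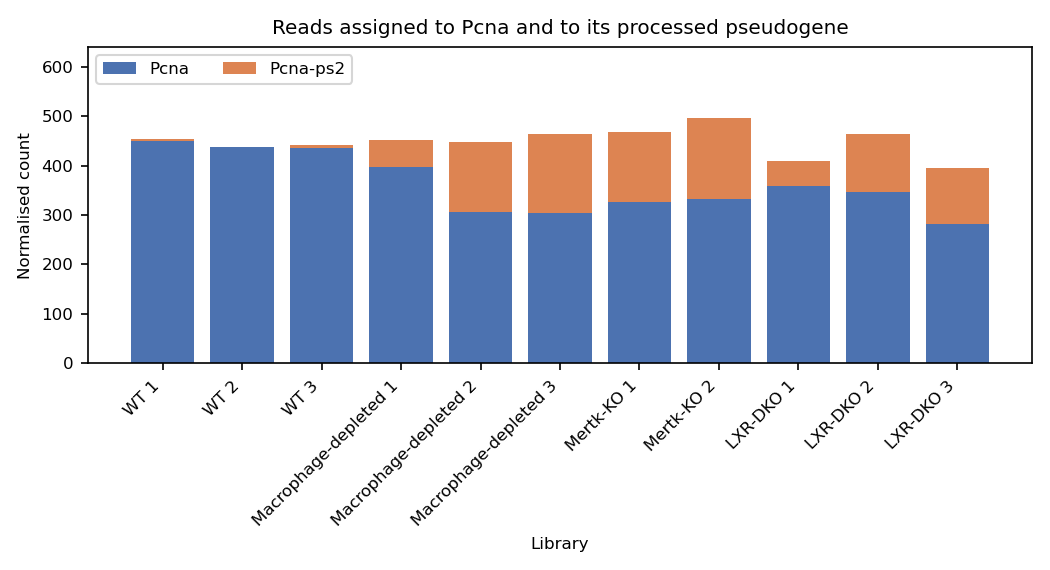
Bars are the normalised counts assigned to Pcna (blue) and to Pcna-ps2 (orange), stacked, in each library. The blue part is 435 or more in WT and 282 to 397 elsewhere, while the whole bar lies between 394 and 497 in all 11 libraries.

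Other members have copies too. Of the 36, 12 have a stretch of 300 coding bases or more that is at least 90% identical to another annotated transcript, with 17 such copies in all. Only 2 of these copies were in the count table, Pcna-ps2 and Cdc23, which overlaps Kif20a on the opposite strand. Ccnb1 had 5 of the copies, of which the TPM table held 3, with a mean of 0 to 0.00342 TPM over the libraries. Plk-ps1, a processed pseudogene, is 93.5% identical to Plk1 over 1811 bases. It had a mean of 0.161 TPM over the libraries and 0.426 at most, against a mean of 0.368 for Plk1 itself. The value of a member with a copy is uncertain as far as the counting could split reads.

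The cyclins and the kinase of S, G2 and mitotic entry were scarce, and their spread was wide. Ccna2 (cyclin A2, which works in S phase and G2) had 16.3, 30.2 and 32.7 normalised counts in WT, 14.8, 19.6 and 14.8 after depletion, 17.0 and 48.4 in Mertk-KO and 25.1, 23.3 and 23.9 in LXR-DKO. The Macrophage-depleted libraries all lay below LXR-DKO and overlapped WT (log2 fold change against WT -0.60, 95% interval -1.42 to 0.21, limma adjusted p 0.835). Ccna2 shares 510 exonic bases with the opposite-strand gene Exosc9, which had a mean of 226 normalised counts. Cdk1, the kinase that starts mitosis, had 17.0, 10.2 and 12.6 in WT, 4.22, 11.3 and 8.63 after depletion, 18.6 and 20.5 in Mertk-KO and 15.7, 9.65 and 8.79 in LXR-DKO. In the counts the Mertk-KO pair was the highest and Macrophage-depleted 1, at the level that a count of 0 would allow, the lowest. Between Macrophage-depleted and Mertk-KO, Cdk1 differed there by -1.27 (log2, SE 0.45, adjusted p 0.0651). In TPM the Mertk-KO pair, at 1.79 and 1.36, was not above WT (1.75, 1.63 and 2.67). The Macrophage-depleted libraries, at 0.389, 1.18 and 0.818 TPM, all lay below WT (log2 fold change -1.32, limma adjusted p 0.250). Ccnb2 (cyclin B2) had 7.04 to 21.6 and all groups overlapped. Ccnb1 was under the minimum for testing, with 5 to 12 estimated reads in every library.

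Among the 6 mitotic kinases and checkpoint genes, Bub1b stood lower in every group than in WT. Bub1b encodes BubR1, which holds back chromosome separation until all chromosomes are attached, and lies on chromosome 2 (GRCm38, 118598211 to 118641591, plus strand). It had 21.3, 19.5 and 29.3 normalised counts in WT, 9.85, 10.6 and 12.2 after depletion, 18.6 and 11.9 in Mertk-KO and 8.34, 9.65 and 6.83 in LXR-DKO. All 8 other libraries lay below the 3 of WT. The log2 fold change was -1.02 (SE 0.32) after depletion, -0.60 (SE 0.36) in Mertk-KO and -1.38 (SE 0.32) in LXR-DKO, and limma adjusted p was 0.380, 0.298 and 0.138. The LXR-DKO value passed when each library had its own weight (adjusted p 0.0174), and the range over 22 alternatives was 0.0174 to 0.495. In TPM the Mertk-KO pair, at 0.531 and 0.572, overlapped WT (0.426 to 0.963).

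Birc5 (survivin, a subunit of the Aurora B complex) had 15.1, 15.2 and 18.9 normalised counts in WT, against 6.29, 11.5 and 10.5 after depletion, without overlap (log2 fold change -0.77, SE 0.43, limma adjusted p 0.797). In Mertk-KO it had 10.6 and 25.4 and in LXR-DKO 6.88, 17.1 and 15.9, on either side of WT. In TPM Birc5 after depletion, at 0.143, 0.915 and 0.522, overlapped WT (0.432 to 0.915). Plk1 ran the other way in the normalised counts, with 8.51, 9.21 and 9.43 in WT, 16.9, 11.3 and 10.8 after depletion, 11.9 and 12.9 in Mertk-KO and 14.8, 16.9 and 12.7 in LXR-DKO. The WT libraries were the 3 lowest, and the change was 0.45, 0.42 and 0.65 in the order of these groups (adjusted p 0.880, 0.463 and 0.463). In TPM the WT libraries, at 0.239 to 0.323, overlapped each group for Plk1. Aurka (Aurora A, the kinase of the spindle poles) had 7.44 to 17.4, and its groups overlapped in each comparison with WT. Aurkb (Aurora B) had 7, 9 and 10 estimated reads in WT, 1, 11 and 3 after depletion, 8 and 11 in Mertk-KO and 14, 7 and 6 in LXR-DKO. Bub1, the partner checkpoint kinase of BubR1, had 2 to 12 reads. Both genes were under the minimum for testing. Fitted without that minimum, neither passed in any of the 6 comparisons (limma). Aurkb was at -1.30 after depletion against WT (adjusted p 0.713) and at -1.59 against Mertk-KO (adjusted p 0.117), and Bub1 at 1.14 in Mertk-KO against WT (adjusted p 0.362). Bub1, like Bub1b and Pcna, lies on chromosome 2 (GRCm38, 127801122 to 127831865, minus strand). The labels name no strain, so genetic background and group cannot be told apart for these genes.

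Cenpf gave the largest fitted difference among the 33 members over the 6 comparisons. It encodes a large coiled-coil protein of the nuclear matrix and kinetochore, and its longest annotated transcript, with 11130 bases, is the longest of the 36. The gene lies on chromosome 1 (GRCm38, 189640606 to 189688086, minus strand). It had 513, 339 and 576 normalised counts in WT, 697, 753 and 776 after depletion, 95.5 and 169 in Mertk-KO and 388, 288 and 662 in LXR-DKO. All Macrophage-depleted libraries were above, and both Mertk-KO libraries below, every WT and LXR-DKO library. Cenpf fell in Mertk-KO against WT by 1.86 in log2 units (SE 0.32, 95% interval -2.57 to -1.16, limma adjusted p 0.0127). It was lower in Mertk-KO than in LXR-DKO (-1.71, SE 0.32, adjusted p 0.0240) and higher in Macrophage-depleted than in Mertk-KO (2.53, SE 0.32, adjusted p 0.00158). After depletion it was 0.67 above WT (95% interval 0.04 to 1.30, adjusted p 0.617), and in LXR-DKO -0.15 from WT (adjusted p 0.880).

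The TPM table gave Cenpf a smaller difference. It had 5.12, 2.55 and 8.60 TPM in WT, 9.58, 5.58 and 12.7 after depletion, 1.93 and 4.13 in Mertk-KO and 7.55, 2.16 and 6.88 in LXR-DKO. Mertk-KO 2 lay above WT 2 there, so the groups overlapped (log2 fold change -0.75, SE 0.61, limma adjusted p 0.484). The call against WT was also lost without WT 3 (0.0538), with the 2 groups fitted alone (0.0798) or with a weight per library (0.0755), in a range of 0.000857 to 0.484. Removing each library's trend over transcript length gave -1.44 (adjusted p 0.0472). The call against LXR-DKO was lost without Mertk-KO 1 (0.0661), LXR-DKO 1 (0.0698) or LXR-DKO 3 (0.0630), with adjusted p between 0.00156 and 0.562 over the alternatives. Of the next longest members, Mki67 (10061 bases) was at -0.53 and Cenpe (7910 bases) at -0.81 in Mertk-KO against WT, both without a call. The part of transcript length in these values was not tested beyond that fit.

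**Figure D5:**
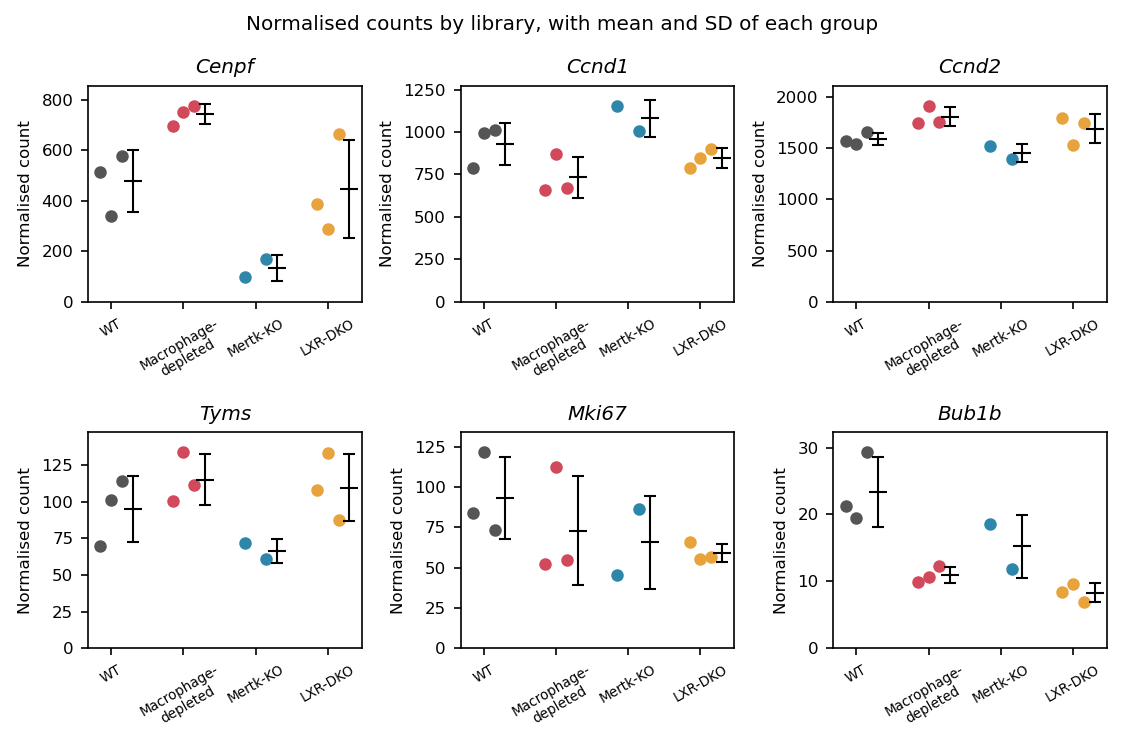
Points are the normalised counts of single libraries, and black marks with bars the mean and SD of each group (n = 3, or 2 for Mertk-KO), on axes that start at 0. Cenpf is at 95.5 and 169 in the Mertk-KO libraries and at 697 to 776 in the 3 Macrophage-depleted libraries, Bub1b is highest in WT, and Mki67 overlaps between WT, Macrophage-depleted and Mertk-KO.

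The proliferation marker Mki67, which coats mitotic chromosomes, did not pass in any comparison. It had 84.0, 122 and 73.4 normalised counts in WT, 52.1, 112 and 54.7 after depletion, 45.1 and 86.2 in Mertk-KO and 65.8, 55.5 and 56.6 in LXR-DKO. Only the LXR-DKO libraries all lay below WT (log2 fold change -0.61, 95% interval -1.30 to 0.07, limma adjusted p 0.481). After depletion the change was -0.40 with an interval of -1.09 to 0.28, which spans 0. Top2a, the topoisomerase that untangles sister chromatids, had 18.4, 78.2 and 29.6 after depletion against 42.3, 46.4 and 51.8 in WT, so that Macrophage-depleted libraries bracketed WT. Kif11, the motor that pushes spindle poles apart, had 2.82, 37.5 and 19.4 after depletion, and Cenpe, a kinetochore motor, 3.98 and 14.0 in Mertk-KO.

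Cenpa was lower after depletion than in any other library. It had 577, 501 and 556 normalised counts in WT, 485, 375 and 415 after depletion, 511 and 546 in Mertk-KO and 570.4, 497 and 607 in LXR-DKO. The Macrophage-depleted libraries did not overlap any other group. The log2 difference was -0.36 from WT (SE 0.11, limma adjusted p 0.365), -0.32 from Mertk-KO (SE 0.12, adjusted p 0.0866) and -0.39 from LXR-DKO (SE 0.11, adjusted p 0.0776). In the TPM table the difference from Mertk-KO was -0.44 and passed (adjusted p 0.0490). Macrophage-depleted 1 (34.8 TPM) lay above WT 2 (33.4 TPM) there, so those groups overlapped.

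Of the 4 cytokinesis genes, Kif20a, a motor of the central spindle, had 20.8, 13.3 and 21.4 normalised counts in WT, 14.7, 17.8 and 19.1 after depletion, 42.3 and 24.6 in Mertk-KO and 22.1, 26.8 and 25.5 in LXR-DKO. Both knockout groups lay above WT and Macrophage-depleted. The change in Mertk-KO was 0.80 (log2, SE 0.32, limma adjusted p 0.124), and it was 1.18 without Mertk-KO 2 (adjusted p 0.0485) and 0.42 without Mertk-KO 1, fits in which the spread comes from the other groups alone. Kif20a shares 1271 exonic bases with the opposite-strand gene Cdc23, which had a mean of 514 normalised counts, so that reads of the pair cannot be told apart without strand. Anln (anillin, a scaffold of the contractile ring) had 36.2, 32.8 and 27.2 in WT and 24.1, 10.9 and 15.6 in LXR-DKO, without overlap (-0.95, SE 0.34, adjusted p 0.343). In TPM these groups overlapped, with Anln at 1.43 in LXR-DKO 1 and at 0.853 to 1.19 in WT (log2 fold change -0.48). The values that follow are again normalised counts. Prc1, which bundles the microtubules of the midzone, had 21.4 to 44.6 and Ect2, which activates RhoA at the division plane, 5.56 to 16.8. In the counts Prc1 overlapped between WT and each group, and Ect2 in LXR-DKO (7.67 ± 2.05) lay below WT (12.9 ± 3.43) without a call. In TPM Prc1 had 3.25, 2.86 and 4.53 in LXR-DKO, above the 1.58 to 1.83 of WT (log2 fold change 0.97, limma adjusted p 0.290). Prc1 shares 911 exonic bases with the opposite-strand gene Rccd1.

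Genes that act with the 36 were read from 5 lists of licensing, mitotic, transcription factor, inhibitor and other cyclin genes, of which 124 of 158 were tested. Macrophage depletion and loss of the liver X receptors each gave 0 calls among the 124 against WT by limma and 0 by voom, with 9 (7.26%) and 13 (10.5%) at an unadjusted p below 0.05, where 7.53% and 11.5% of all genes had one. In Mertk-KO against WT 4 of 124 (3.23%) changed by limma and 3 by voom, where limma called 9.27% of all genes. Rrm2b, the ribonucleotide reductase subunit of resting cells, fell by 0.69 on the log2 scale (349.8 against 554 normalised counts, adjusted p 0.0222). Smc2, a condensin subunit, fell by 0.79 (33.05 against 57.8, adjusted p 0.0476), and Ccnt2, a cyclin of transcription elongation, fell by 0.64 (460.2 against 711, adjusted p 0.0127). Cdk5, a kinase active mainly in neurons and outside the cycle, rose by 0.36 (289.5 against 225, adjusted p 0.0431). None of the 4 is a cyclin or kinase of the division cycle itself. By list, 1 of 40 licensing and fork genes, 1 of 25 mitotic genes and 2 of 22 other cyclins and kinases changed.

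Between Macrophage-depleted and Mertk-KO 18 of the 124 (14.5%) differed by limma and 20 by voom, where limma called 21.0% of all genes. Of the 18, 12 were higher after depletion and 6 lower. Of the alternatives, only voom is given for these genes. Over all genes, this comparison fell from 2911 calls to 146 with the 2 groups alone and to 438 with weights per library. Among the inhibitors Btg2, an antiproliferative gene induced by stress, was lower after depletion (462 against 1116 normalised counts, log2 difference -1.28, limma adjusted p 0.0187). Cdkn1c (p57) was at 195 against 304 (-0.66, adjusted p 0.0219) and Cdkn1a (p21, an inhibitor of cyclin-dependent kinases) at 140.0 against 259 (-0.96, adjusted p 0.0336). Wee1, the kinase that holds Cdk1 inactive, was higher after depletion, at 176 against 81.9 in Mertk-KO (1.11, adjusted p 0.0324). It was also higher than in LXR-DKO (52.1), by 1.76 (adjusted p 0.00778). Against WT, 0 of the 19 inhibitors and pocket proteins tested passed in Macrophage-depleted or in Mertk-KO, so these calls do not show which group moved. The other cyclins and kinases held 10 of the 18, 8 of them higher after depletion, led by Ccnt2 (789 against 460.2, 0.78, adjusted p 0.00269), Cdk13 (0.44), Cdk8 (0.74) and, as 1 of 2 lower, Cdk5 (-0.39). Rrm2b (0.73), Rfc1 (0.52) and Smc2 (1.15) were higher and Pttg1, the separase inhibitor securin, lower (-0.34). Of the 18 transcription factors tested, E2F and Myb family genes among them, 0 differed in any of the 6 comparisons by limma or by voom. At an unadjusted p below 0.05 stood 4 (22.2%) after depletion, 1 (5.56%) in Mertk-KO and 2 (11.1%) in LXR-DKO against WT, where 7.53%, 28.6% and 11.5% of all genes did. Macrophage-depleted against Mertk-KO and against LXR-DKO gave 4 each (36.2% and 20.5% of all genes), and Mertk-KO against LXR-DKO gave 1 (20.9% of all genes). Wee1 and Cdk13 (0.37, adjusted p 0.0482) were the 2 genes (1.61%) that differed between Macrophage-depleted and LXR-DKO, where 3.24% of all genes did. Ccnt2 (-0.61, adjusted p 0.0213) was the 1 gene (0.806%) that differed between Mertk-KO and LXR-DKO, where 2.46% did.

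Cell cycle promoters are known for CCAAT boxes, bound by the factor NF-Y, for the cell cycle homology region (CHR), bound by the MuvB complex, and for E2F sites. RefSeq promoter sequences of GRCm38.p6, from 250 bases before to 50 after the start, were matched for 30 of the 36 (Ccnd1, Ccnd2, Ccna2, Aurkb, Kif20a and Mcm4 were not matched). Motifs were searched on either strand of the 250 bases before the start, and not in the 50 after it. CCAAT was found in 24 of the 30 (80%), against 36.2% of the promoters of 10408 genes tested and 34.5% of all 27025 RefSeq promoters. The CHR letters TTTGAA were found in 7 of 30 (23.3%), against 10.4% and 16.3%, and each of these 7 also held CCAAT. An E2F site, searched as TTTCCCGC, TTTCGCGC, TTTGCCGC or TTTGGCGC, was found in 5 of 30 (16.7%), against 3.37% and 1.91%. Tyms, Ccne1, Anln, Cdk4, Birc5 and Ccnd3 held none of the 3 motifs. A match is a description of letters and not of binding.

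The promoters of Cenpf, Mki67 and Top2a are shown as examples of how the CCAAT and CHR letters lie in promoters of 1 class of mitotic genes. Each run is the 150 bases upstream of the start, written 5′ to 3′ on the minus strand of GRCm38.p6. Capitals mark CCAAT (or its reverse complement ATTGG) and TTTGAA (or its reverse complement TTCAAA). Cenpf lies at chr1:189688087-189688236, Mki67 at chr7:135716380-135716529 and Top2a at chr11:99024190-99024339.
Cenpf: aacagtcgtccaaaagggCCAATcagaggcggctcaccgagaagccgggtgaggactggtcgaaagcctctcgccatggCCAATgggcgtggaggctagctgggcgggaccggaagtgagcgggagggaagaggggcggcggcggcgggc
Mki67: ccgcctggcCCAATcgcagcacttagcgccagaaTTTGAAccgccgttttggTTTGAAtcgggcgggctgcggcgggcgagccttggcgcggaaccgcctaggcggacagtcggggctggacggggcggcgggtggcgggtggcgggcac
Top2a: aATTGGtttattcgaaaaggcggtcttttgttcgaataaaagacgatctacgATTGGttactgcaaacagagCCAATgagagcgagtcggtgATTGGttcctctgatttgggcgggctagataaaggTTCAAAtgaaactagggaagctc

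In these windows Cenpf held 2 CCAAT boxes and 0 copies of the CHR letters, Mki67 held 1 and 2, and Top2a held 4 and 1.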

How the data were processed

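RNA was extracted from frozen hearts with Trizol and amplified with the Ovation Single Cell kit before Illumina library preparation, per the labels' protocols. Tools named in the submitters' processing notes are RSEM 1.2.20, kallisto 0.43.1, CASAVA 1.8.2 and cutadapt, with the build GRCm38; their roles, annotation and strand setting were not given in the sources used here. As deposited, the 2 tables hold a signal per gene, a normalised TPM and a normalised count; the values of the latter show 0.5 read added to each gene and division by a size per library. Estimated reads were recovered from the normalised counts by removing the added part, and 57.5% to 61.9% of low values were whole within 0.01 read, so no count model was the main test. Reads were scaled to the mean effective library size (normalised counts). Gene positions and symbols came from GENCODE M21. The columns of both tables all belonged to the 11 libraries.

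The 13884 genes averaging 10 normalised counts or more were tested with limma 3.58.1 in R 4.3.3 (lmFit, contrasts, eBayes with trend) on log2(normalised count + 1), which understates changes of low genes. The 4 groups were fitted in 1 model with 7 residual degrees of freedom, two-sided, with Benjamini-Hochberg adjustment over all genes of a comparison and a threshold of 0.05. TPM was tested as log2(TPM + 0.1). The scripts were tested on simulated data.

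All 36 members are described. Full statistics are given for members past the threshold in any comparison and, in each comparison with WT, for up to 5 further members with the smallest p; of the companion lists, members past the threshold are named, up to 4 per list and comparison. Other members and values were chosen after they were seen. The members and lists were chosen with earlier results of these data known. Alternatives were other pseudocounts, filters, scaling, the TPM table, 2 groups alone, weights per library, a replicate block, removal of each library's trend over transcript length, and leaving out each library. Voom weights and the added reads of Pcna-ps2 were chosen after seeing the data.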

Additional observations from a re-analysis of the deposited data

How the results depend on the processing

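Counts of genes past the threshold varied with the setting. Where a Mertk-KO library is left out, the lone library of that group is assumed to vary like the other groups. For Macrophage-depleted against WT, 33 genes passed, with 17 without a filter, 66 with the 2 groups alone, 20 from TPM, 219 with weights per library and 3 (without WT 3) to 84 (without Mertk-KO 1) with 1 library left out. For Mertk-KO against WT, 1287 became 597, 1, 386 and 12 under the same 4 alternatives, 154 with the length trend removed and 70 (without WT 3) to 2399 (without Mertk-KO 2). For LXR-DKO against WT, 58 became 124 with the 2 groups alone, 593 with weights and 31 (without WT 2) to 118 (without Mertk-KO 1). For Macrophage-depleted against Mertk-KO, 2911 became 146 with 2 groups, 1618 in TPM, 438 with weights, 1474 with the length trend removed and 1378 (without Macrophage-depleted 2) to 3237 (without Mertk-KO 2). For Macrophage-depleted against LXR-DKO, 450 became 278 without a filter, 222 in TPM, 2043 with weights and 135 (without LXR-DKO 2) to 1229 (without either Mertk-KO library). For Mertk-KO against LXR-DKO, 341 became 150 without a filter, 20 with 2 groups, 91 in TPM, 19 with weights, 201 with the length trend removed, 162 with voom and 72 (without LXR-DKO 1) to 2168 (without Mertk-KO 2).

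Among the members, the 4 calls between Macrophage-depleted and Mertk-KO became 1 with 2 groups or weights, 2 in TPM (Cenpa and Mcm3), 2 with the length trend removed and 1 (without Macrophage-depleted 3) to 5 (without LXR-DKO 3). The 1 call of Mertk-KO against WT became 0 with 2 groups, TPM or weights, 2 with the length trend removed and 0 (without WT 3) to 2 (without Macrophage-depleted 1 or Mertk-KO 2); that against LXR-DKO became 0 with 2 groups, TPM, weights or voom and 0 to 1, with 0 without Mertk-KO 1, LXR-DKO 1 or LXR-DKO 3. Weights gave 1 call (Pcna) for Macrophage-depleted against WT, 2 (Bub1b and Pcna) for LXR-DKO against WT and 2 (Cenpa and Cenpf) for Macrophage-depleted against LXR-DKO, which had 1 without Macrophage-depleted 1, either Mertk-KO library or LXR-DKO 3 and 0 without any other. Directions turned in TPM for Tyms (-0.023) and Rrm1 (-0.14) after depletion, Ccnd3 in Mertk-KO (-0.14) and Cenpf in LXR-DKO (0.0019). They turned with the length trend removed for Ccnd2 in Mertk-KO (0.0891) and Cenpf in LXR-DKO (0.0167), the latter also without WT 3 (0.01) and without LXR-DKO 2 (0.12), against -0.48 without LXR-DKO 3. With the reads of Pcna-ps2 added, Pcna was 0.0345 above WT after depletion and 0.12 above in Mertk-KO. Removing the length trend moved the share of higher genes among those passing from 36.4% to 46.1% for Mertk-KO against WT and from 27.9% to 49.8% against LXR-DKO, and the TPM table moved it from 33.3% to 20% for depletion.

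Residuals of the 15 pairs of libraries with the same replicate number correlated at -0.0937 to 0.107. Of these, 2 were over 0.1, both with Mertk-KO 2. The other pairs across groups correlated at -0.116 to 0.111. The residuals of the 2 Mertk-KO libraries mirror each other, and the check cannot exclude a pairing. With the replicate block, 391 genes passed for Mertk-KO against WT, 119 for Mertk-KO against LXR-DKO and 2036 for Macrophage-depleted against Mertk-KO, the last with 2 members (Ccnd1 and Cenpf). Depth limits the lowest members, since 3 reads equal 2.12 to 4.22 normalised counts.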
